A study of Rattus norvegicus with 18 samples.

Results

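Syt13, Pcsk1, Cast and Slc39a12 are 4 rat genes whose RNA was several-fold lower in primary Schwann cells given vitamin C than in cells without it. They were chosen by that RNA difference, in the same libraries described here, and were found by gene name. They are 4 of the 32883 genes with an RNA row, and 25 of the 215951 regions in the deposited peak list carry their names. The RNA values below are therefore a description with no test. The 5-hydroxymethylcytosine (5hmC) and input DNA values at the 25 peaks did not enter the choice of genes. The regions are 5hmC peaks listed by the authors, by a rule that the sources used here do not give. If a region was listed through the group where its signal was high, its 5hmC test is not independent of that listing. The groups were primary rat Schwann cells at passage 3, labelled control or vitamin C (VitC), with no genetic change named in either group. The sources used here do not give the dose, the time in vitamin C, or the age and strain of the animals. RNA depleted of ribosomal RNA, DNA precipitated with an antibody to 5hmC (hMeDIP) and unprecipitated input DNA were each sequenced in 3 libraries per group. The series asks how vitamin C acts on Schwann cell myelination and on DNA demethylation.

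Schwann cells are the glia that ensheath and myelinate the axons of peripheral nerves. Vitamin C (ascorbate) is a cofactor of the hydroxylases that mature collagen and of the TET enzymes, which oxidise 5-methylcytosine to 5hmC, an intermediate of active demethylation that also persists as a mark in gene bodies. The 4 genes have unrelated roles. Syt13 encodes synaptotagmin 13, an atypical member of a family of membrane trafficking proteins, which lacks the residues that bind calcium in the classical members. Pcsk1 encodes prohormone convertase 1/3, a protease of dense core secretory granules that cleaves peptide precursors. Cast encodes calpastatin, the specific endogenous inhibitor of the calpain proteases, which cut cytoskeletal and adhesion proteins. Slc39a12 encodes ZIP12, a zinc importer of the plasma membrane best known from the brain.

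RefSeq's table of promoters of the GRCr8 assembly holds 2 of the 4 genes, Cast and Slc39a12. Their windows run from 250 bases before to 50 bases after the listed start and are shown because 5hmC arises at CG dinucleotides, which are in capitals. The Cast window lies at chr2:5816937-5817236 on the minus strand and the Slc39a12 window at chr17:82262107-82262406 on the plus strand, both printed 5′ to 3′.
Cast: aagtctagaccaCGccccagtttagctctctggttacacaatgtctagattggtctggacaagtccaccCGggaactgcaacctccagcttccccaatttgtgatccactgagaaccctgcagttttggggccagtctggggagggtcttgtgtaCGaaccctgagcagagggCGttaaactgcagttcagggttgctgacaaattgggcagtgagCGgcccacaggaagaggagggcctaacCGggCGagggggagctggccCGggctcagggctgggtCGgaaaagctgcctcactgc
Slc39a12: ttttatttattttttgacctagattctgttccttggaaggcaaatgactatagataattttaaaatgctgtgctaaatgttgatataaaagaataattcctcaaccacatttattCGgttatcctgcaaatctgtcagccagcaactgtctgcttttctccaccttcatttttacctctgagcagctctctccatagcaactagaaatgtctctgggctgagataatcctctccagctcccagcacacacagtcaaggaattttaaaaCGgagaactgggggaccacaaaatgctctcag
The Cast window is 58.3% G or C with 9 CG dinucleotides, and 44.3% of all 33469 promoter windows of the same length hold at least as many. The Slc39a12 window is 39.3% G or C with 2 CG dinucleotides, and 22.3% of windows hold as few. The median window has 7, with quartiles at 3 and 19. Of 4 motifs searched on both strands, TATAAA was found once in the Slc39a12 window and is present in 14.2% of all windows. The letters TGACGTCA (1.83% of windows), ACGTG (19.3%) and GGGCGG (33.1%) are in neither window. No source used here names the build of the deposited positions, so these windows could not be laid over the peaks.

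Genes held 23381814 to 33173282 reads of each RNA library, and peaks held 24020306 to 39899445 reads of each hMeDIP library and 7201638 to 9521037 of each input library. Summed levels of 10 Schwann cell markers, such as Sox10 and Erbb3, were 12200 to 12500 CPM (read counts scaled to the library's total) in control and 12100 to 12800 in VitC libraries, with single markers called both ways (4 higher, 2 lower). L1cam (1.32 ± 0.06 on the log2 scale), Mbp, Cdh19 and Gas7 were higher, S100b (-0.99 ± 0.06) and Erbb3 (-0.16 ± 0.05) were lower, and Sox10 was not called (0.12 ± 0.05, edgeR adjusted p = 0.102). Among treated RNA libraries VitC replicate 1 stood apart, with a chi-square per degree of freedom of 29.3 and 41 against the other 2, which differed from each other by 5.54. In hMeDIP, replicates 1 and 3 of each group differed by less than the sampling noise (0.963 in control, 0.896 in VitC), unlike the other pairs of a group (1.08 to 1.47). They were counted as 1 sample, so hMeDIP has n = 2 per group. Input libraries differed by no more than sampling noise within and between groups (0.974 to 0.992) and were kept as 3 samples each.

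All 4 genes had lower RNA levels in every VitC library than in any control library, by 4.25-fold to 15-fold. Levels are CPM of reads in genes, scaled by edgeR's TMM factors, and changes are log2 fold changes of VitC over control with the SE of the fit. Because this difference chose the genes, it carries no test. For background, 28.9% of the 12925 tested genes had every control library above every VitC library, 21% were called lower and 40.1% in either direction by edgeR at an adjusted p of 0.05, and 0.727% were called lower by more than 2 log2 units.

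Syt13 (ENSRNOG00000008000) stood at 127, 133 and 141 CPM in control replicates 1 to 3 and at 13.6, 12 and 13.6 CPM in VitC replicates 1 to 3. Both groups were tight, and the remaining level was 9.77% of control. The means were 134 ± 6.76 and 13 ± 0.919 CPM (SD, n = 3), a 10.2-fold lower level and a log2 change of -3.36 ± 0.08. This was the 23rd lowest change of the 12925 genes.

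Pcsk1 (ENSRNOG00000011107) stood at 31.9, 32.8 and 33.4 CPM in the controls and at 4.53, 4.87 and 5.55 CPM with vitamin C. The 3 controls were nearly equal, and the VitC libraries kept 15.2% of their level. The means were 32.7 ± 0.759 and 4.98 ± 0.521 CPM, a 6.55-fold lower level and a log2 change of -2.71 ± 0.09.

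Cast (ENSRNOG00000010286) stood at 2140, 2210 and 1950 CPM in the controls and at 492, 488 and 503 CPM with vitamin C. It had 46712 to 74862 reads per control library and 12483 to 14323 per VitC library, far more than the other 3 genes. The means were 2100 ± 132 and 494 ± 8 CPM, a 4.25-fold lower level with 23.5% left and a log2 change of -2.09 ± 0.06.

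Slc39a12 (ENSRNOG00000025639) stood at 22.7, 16.8 and 20.9 CPM in the controls and at 2.24, 0.794 and 1.02 CPM with vitamin C. VitC replicate 1, the library that stood apart, held the highest treated level, with 57 reads against 22 and 29 in the other VitC libraries. The means were 20.1 ± 2.99 and 1.35 ± 0.781 CPM, a 15-fold lower level and a log2 change of -3.91 ± 0.28. Without VitC replicate 1 the change of Slc39a12 was -4.46 ± 0.19, whereas Syt13, Pcsk1 and Cast then stood at -3.38, -2.65 and -2.08. The next ranks cover the 7492 genes with a symbol in the peak list and an average log2 CPM of at least 3. Among them Slc39a12 had the lowest change, Syt13 was at rank 2, Pcsk1 at rank 8 and Cast at rank 17. Over all 12925 tested genes the ranks were 12, 23, 44 and 80 in the same order.

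**Figure D1:**
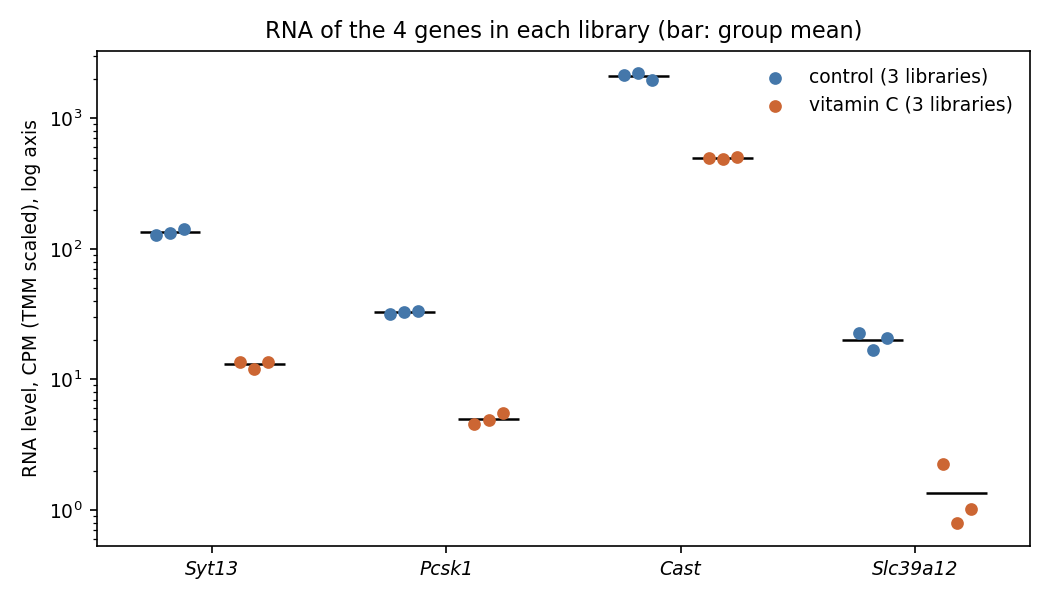
RNA level of each gene (CPM, TMM scaled, log axis) in 3 control and 3 VitC libraries, each point a library and each bar a group mean. No control and VitC points overlap, and the VitC points of Slc39a12 spread most, from 0.794 to 2.24 CPM.

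The 5hmC peaks of these genes did not follow 1 direction, and neither did the peaks of the whole series. The authors' list assigns 7 peaks to Syt13, 2 to Pcsk1, 10 to Cast and 6 to Slc39a12. By edgeR's test on hMeDIP counts, with adjustment over all peaks, 8 of the 25 peaks were higher with vitamin C, 8 were lower and 9 were not called. Over all 215951 peaks 36.9% were called higher and 36.3% lower, so the split of the 25 is near that of all peaks. Syt13 had 3 higher and 4 lower peaks, Cast 3 higher and 2 lower, Slc39a12 1 higher and 2 lower, and Pcsk1 1 higher peak. DESeq2 called 4 of the 25 higher and 8 lower, and 43730 and 68751 of all 215951 peaks.

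Scaling changes these counts. The share of counted hMeDIP reads inside peaks was 30.8% to 35.7% in control and 40.8% to 43.9% in VitC libraries, against 8.43% to 8.65% in input. TMM scaling sets the typical peak near 0 (median change 0.05), whereas scaling by all counted reads moved the median of all peaks to 0.49. Under that scaling 13 of the 25 peaks were called higher and 6 lower, against 60.1% and 23.6% of all peaks. The deposited list also runs through the genome from start to end and then begins again at peak 68433. Of the peaks before that point, 2.89% were called higher and 87.1% lower, and of those after it 52.6% higher and 12.8% lower. The 4 genes have 7 peaks before that point, of which 5 were lower and 2 not called, and 18 after it, of which 8 were higher, 3 lower and 7 not called. No source used here says what the parts of the list stand for, and their share in each result was not tested.

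**Figure D2:**
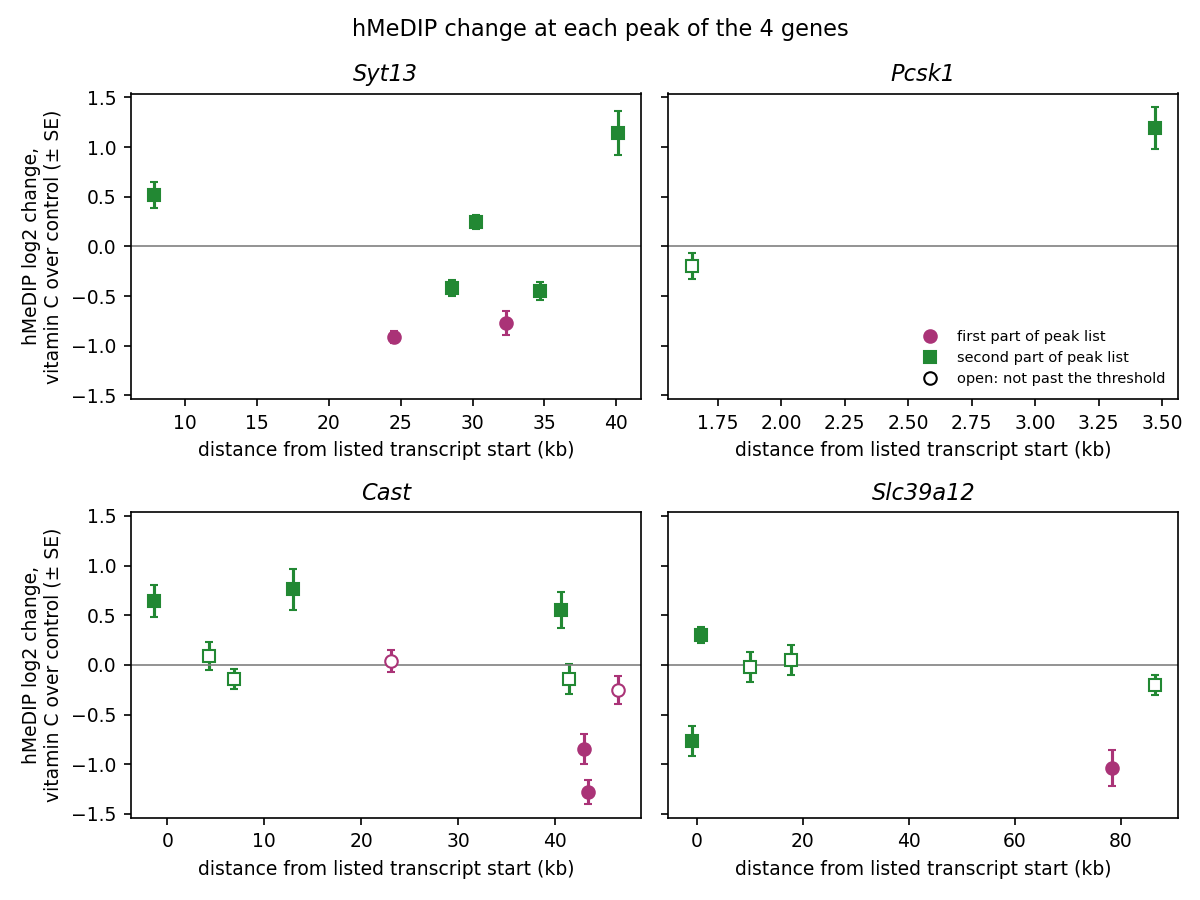
hMeDIP log2 change (VitC over control, TMM scaled, ± SE) of each of the 25 peaks against its distance in kb from the start of the transcript the peak list names, by gene and by part of the peak list, with open symbols not past the threshold. Called peaks lie on both sides of 0 in Syt13, Cast and Slc39a12, and all 5 called peaks from the first part of the list lie below 0. The peaks of Cast are measured from 2 transcripts, so peaks drawn side by side near 43 kb are not neighbours.

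In Syt13 the widest peak, which held the most hMeDIP signal of the gene, lost signal while others gained it. This peak, chr3:81837681-81839940, lies in the gene body 24549 bases from the listed start. Its level was 33.1, 29.3 and 32.9 CPM of reads in peaks in control replicates 1 to 3 and 17.1, 17.2 and 16 CPM in VitC replicates 1 to 3. The groups did not overlap, and the log2 change was -0.91 ± 0.06 (means 31.2 ± 2.57 and 16.9 ± 0.448 CPM, SD, n = 2, edgeR adjusted p = 1.31e-17). The input at the same peak was 12 ± 0.93 and 12.4 ± 1.87 CPM (SD, n = 3), so hMeDIP over input went from 2.59 to 1.36 on the scale of reads in peaks, and from 10 to 6.91 scaled by all counted reads. That change over input was -0.89 ± 0.13 (edgeR adjusted p = 1.87e-08), against 26.7% of all peaks called higher and 25.4% called lower over input. Scaled by all counted reads, the hMeDIP change of this Syt13 peak was -0.44 (adjusted p = 0.0032).

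A further Syt13 peak of the first part of the list, chr3:81846349-81846859, held 5.62, 4.76 and 5.4 CPM in control and 2.78, 3.55 and 2.8 CPM in VitC libraries, a change of -0.77 ± 0.12 (edgeR adjusted p = 2.45e-07). Over input its change was -0.45 ± 0.28 and did not pass (adjusted p = 0.173). The other 5 Syt13 peaks ranged from -0.45 to 1.14. The peak farthest from the start, at 40098 bases, rose from 0.801 ± 0.25 to 1.62 ± 0.229 CPM (1.14 ± 0.22, edgeR adjusted p = 1.49e-05), and its rise over input also passed (1.63 ± 0.35, adjusted p = 5.51e-05), although its hMeDIP call was lost without control replicates 1 and 3. No Syt13 peak carries a promoter label.

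Pcsk1 has a gene body peak and a promoter peak, and only the former was called. At chr2:91493460-91493777, which is 3473 bases from the listed start, hMeDIP was 0.674, 0.68 and 0.771 CPM in control and 1.71, 1.59 and 1.62 CPM in VitC libraries. The VitC levels were all above the controls, with a change of 1.19 ± 0.21 (edgeR adjusted p = 2.82e-06) that rests on 16 to 66 reads per library. This gain was in the gene whose RNA was 6.55-fold lower. Input there was 2.02 ± 0.448 and 1.94 ± 0.896 CPM, and the change of hMeDIP over input was 1.32 ± 0.36 (adjusted p = 0.0013). The ratio of hMeDIP to input at this peak was 0.348 in control and 0.839 in VitC libraries on the scale of reads in peaks, and 1.34 and 5.21 scaled by all counted reads. The promoter peak, chr2:91495103-91495787, held 3.41, 3.44 and 3.79 CPM in control and 3.31, 2.8 and 3.25 CPM in VitC libraries, a change of -0.20 ± 0.13 that was not called (edgeR adjusted p = 0.147).

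In Cast the called falls and rises lay in different peaks of the same gene. The lowest change of all 25 peaks was at chr2:1517776-1518326, in the gene body, with 5.54, 5.53 and 5.86 CPM in control and 2.22, 2.58 and 2.14 CPM in VitC libraries. Each group was narrow, and the change was -1.28 ± 0.12 (edgeR adjusted p = 1.73e-12). Over input it was -1.01 ± 0.27 (adjusted p = 9.1e-04), with input at 3.3 ± 1.43 and 2.93 ± 0.579 CPM. Scaled by all counted reads the change of this Cast peak was -0.84 (adjusted p = 2.03e-08). The peak chr2:1468412-1468791 also fell, from 3 ± 0.146 to 1.65 ± 0.0231 CPM (-0.85 ± 0.15, edgeR adjusted p = 3.35e-06), and changed over input by -1.05 ± 0.29 (adjusted p = 0.00135). Both peaks come from the first part of the list.

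The Cast peak labelled promoter, chr2:1512749-1513141, lies upstream of the start of the shorter transcript named in the list, at -1354 bases. It held 1.76, 1.32 and 1.85 CPM in control and 2.72, 2.5 and 2.53 CPM in VitC libraries, so it was higher in every treated library (0.64 ± 0.16, edgeR adjusted p = 0.000559). Over input the change of 0.56 ± 0.32 was not called (adjusted p = 0.125). The Cast peak with the most hMeDIP signal, chr2:1504219-1505129, stood at 5.17, 6.8 and 5.3 CPM in control and 4.8, 5.38 and 5.39 CPM in VitC libraries. Its groups overlapped, and the change of -0.14 ± 0.10 was not called (adjusted p = 0.224). The remaining 6 peaks of Cast ranged from -0.25 to 0.76, with 2 called higher that DESeq2 did not call.

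Slc39a12 has a pair of peaks at its start that went opposite ways. The peak chr17:81455939-81457660, which spans the listed start and holds the most signal of the gene, had 6.33, 6.51 and 7.06 CPM in control and 8.78, 8.06 and 7.82 CPM in VitC libraries. Its rise was 0.30 ± 0.08 (edgeR adjusted p = 0.00174), and input at the peak was 9.51 ± 0.543 and 10.5 ± 1.68 CPM. The neighbouring peak chr17:81454790-81455177, also labelled promoter, had 3.22, 3.23 and 3.58 CPM in control and 1.88, 2.33 and 1.62 CPM in VitC libraries. Its fall was -0.77 ± 0.15 (adjusted p = 9.64e-06). Neither change passed over input, with values of 0.26 ± 0.16 (adjusted p = 0.154) and -0.27 ± 0.31 (adjusted p = 0.47). The first of these peaks was not called by DESeq2 or without VitC replicates 1 and 3.

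Far inside Slc39a12, 78414 bases from the start, the peak chr17:81534211-81534527 held 2.28, 2.38 and 2.13 CPM in control and 0.786, 1.26 and 1.18 CPM in VitC libraries. This was the lowest change of the gene (-1.04 ± 0.18, edgeR adjusted p = 1.89e-06), on 28 to 69 reads per library, and it belongs to the first part of the list. Over input it was -0.64 ± 0.36 (adjusted p = 0.121). The other 3 Slc39a12 peaks ranged from -0.20 to 0.05 and were not called. In input no peak of the 25 passed edgeR's threshold. At an unadjusted p under 0.05 this was 1 of the 25, and 10477 of the 215759 input peaks tested, of which 0% passed after adjustment.

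**Figure D3:**
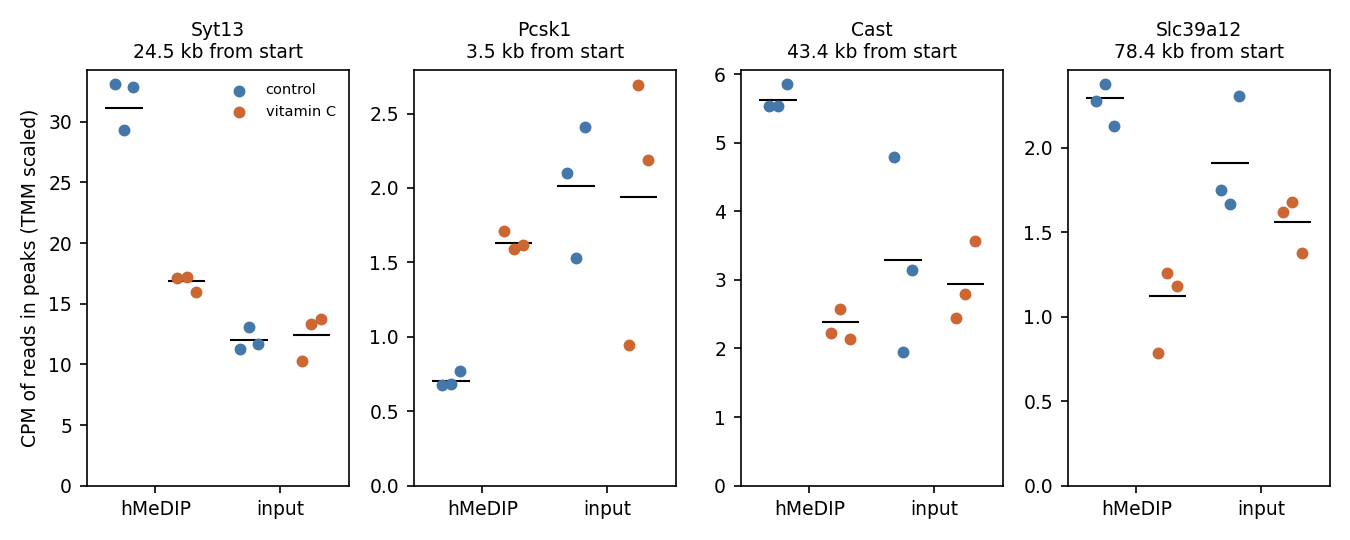
hMeDIP and input levels (CPM of reads in peaks, TMM scaled, axes from 0) at the peak of smallest p in each gene, each point a library and each bar a group mean with hMeDIP replicates 1 and 3 counted once. hMeDIP groups separate in all 4 panels, which follows from choosing the peaks by their p. Levels fell in Syt13 (31.2 to 16.9), Cast (5.61 to 2.38) and Slc39a12 (2.29 to 1.12) and rose in Pcsk1 (0.701 to 1.63). Input points of the groups overlap in all 4 panels, in Slc39a12 only between 1.67 and 1.68 CPM.

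Summed over all peaks of a gene, 5hmC was lower in Syt13 and, by less, in Cast under TMM scaling, and did not pass the threshold in Pcsk1 or Slc39a12. Of the 16140 genes with a tested sum, 35.9% were called higher and 38.3% lower. Syt13 summed to 67.4, 64 and 69.6 CPM in control and 49.8, 51.6 and 47.3 CPM in VitC libraries. The groups did not overlap, with a change of -0.43 ± 0.04 (means 66.2 ± 3.19 and 50.1 ± 2.13 CPM, n = 2, edgeR adjusted p = 2.3e-11). The peak chr3:81837681-81839940 alone gave 31.2 of the 66.2 CPM in control. Over input the Syt13 change was -0.31 ± 0.08 (adjusted p = 0.000423), against 29.9% of gene sums called lower and 25.7% higher over input.

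The Cast sum was 30.9, 30.7 and 30.8 CPM in control and 27.5, 28 and 27.5 CPM in VitC libraries, a change of -0.15 ± 0.05 (edgeR adjusted p = 0.00478). This call was lost by DESeq2 (-0.15, adjusted p = 0.0841) and by library size scaling (-0.10, adjusted p = 0.0556). The Slc39a12 sum was 22.6, 23 and 23.8 CPM in control and 22.4, 21.4 and 21.1 CPM in VitC libraries (-0.10 ± 0.05, adjusted p = 0.079). It was called without VitC replicate 1, at -0.12 (adjusted p = 0.049). The Pcsk1 sum was 4.06, 4.12 and 4.54 CPM in control and 5.04, 4.4 and 4.89 CPM in VitC libraries (0.15 ± 0.12, adjusted p = 0.227). Over input the Cast sum changed by -0.22 ± 0.09 (adjusted p = 0.0282). This call was lost by library size scaling (adjusted p = 0.0902) and without control replicate 1 (0.0696), control replicate 2 (0.15), VitC replicate 1 (0.083) or VitC replicate 3 (0.198). The values over input were -0.12 ± 0.10 for Slc39a12 (adjusted p = 0.31) and 0.13 ± 0.21 for Pcsk1 (adjusted p = 0.621). The input sums themselves changed by -0.12 to 0.07, with adjusted p from 0.972 to 1.

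Scaling by all counted reads shifted the median of all gene sums from 0 to 0.43, and with it the sign of 3 of the genes. Syt13 then stood at 0.03 ± 0.11 (edgeR adjusted p = 0.789), Cast at 0.29 ± 0.11 (adjusted p = 0.011), Slc39a12 at 0.33 ± 0.11 (adjusted p = 0.00337) and Pcsk1 at 0.57 ± 0.13 (adjusted p = 2.24e-05). Relative to that median the 4 stood at -0.40, -0.14, -0.10 and 0.14, in the same order. The parts of the peak list differ as well. The peaks after the restart alone gave -0.03 for Syt13 (adjusted p = 0.556) and 0.15 for Cast (adjusted p = 0.0153).

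**Figure D4:**
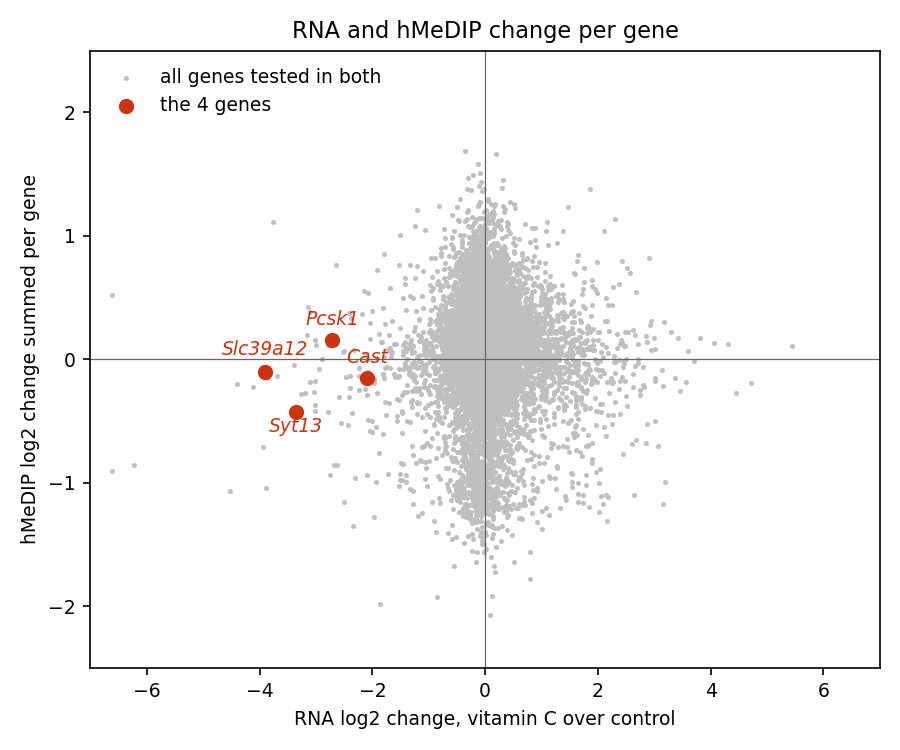
hMeDIP log2 change summed per gene against RNA log2 change (both VitC over control, TMM scaled) for the 10021 genes tested in both, of which 2 lie outside the axes, with the 4 genes in red. The 4 genes lie between -2.09 and -3.91 on the RNA axis but only between -0.43 and 0.15 on the hMeDIP axis, where Syt13, Cast and Slc39a12 stand above 0 when scaled by all counted reads.

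The relatives of the 4 genes were followed through lists of their families and partners, with the 4 genes left out. Of 146 listed genes 75 were found by symbol and passed the filter on low counts. Of the 75, edgeR called 15 higher and 24 lower in RNA, against 19.1% and 21% of all tested genes. Symbols came from the peak list, so listed genes without a named peak, such as Bdnf, Cttn and Slc39a1, were not looked up at any level. Synaptotagmins and peptide precursors made up 14 of the 24 lower genes, and 1 gene each was called among the calpains and the convertases. The median change of all tested genes was -0.01. Without VitC replicate 1 the counts were 17 and 24, and scaled by all counted reads 7 were called higher.

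Of 13 tested members of the synaptotagmin family, 10 were lower with vitamin C, and the median change was -0.54. The largest falls were in genes of low level. Sytl1, a synaptotagmin-like protein that binds Rab27, fell from 1.64 ± 0.157 to 0.263 ± 0.151 CPM (-2.65 ± 0.32, edgeR adjusted p = 0.000345). Sytl3, of the same subfamily, changed by -2.07 ± 0.30, Syt17 by -2.01 ± 0.33, Syt10 by -1.46 ± 0.21 and Syt4 by -1.31 ± 0.14. Syt11, which like Syt13 does not bind calcium in the classical way, fell from 218 ± 10.4 to 132 ± 4.84 CPM (-0.72 ± 0.06, adjusted p = 3.67e-05). The calls of these 6 genes held under all 12 alternatives, whereas those of Syt3 and Syt7 were lost under 8 and 7 of them. The 3 members not called, Syt6, Sytl4 and Esyt2, had changes of 0.26, 0.41 and 0.10. Of the 6 genes whose RNA calls held, Sytl1 (0.77) and Syt11 (0.19) were called higher in hMeDIP sums. Syt17 (-0.59) and Sytl3 (-0.1) were called lower there, and Syt10 and Syt4 were not called.

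Among 6 other tested proprotein convertases 1 was called, in the direction opposite to Pcsk1. Pcsk6, a convertase of the constitutive secretory pathway and the extracellular matrix, rose from 9.31 ± 1.11 to 17.4 ± 1.58 CPM (0.89 ± 0.11, edgeR adjusted p = 0.000367). Furin, the main convertase of the trans-Golgi network, stood at 346 ± 20 and 321 ± 15.3 CPM (-0.11 ± 0.06, adjusted p = 0.198). The list median was 0.16.

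Dense core granule proteins, the company in which Pcsk1 works, went both ways, with 3 of 10 tested higher, 3 lower and a median of -0.11. Cpe, the carboxypeptidase that trims peptides after Pcsk1 cleavage, fell from 20.9 ± 1.12 to 10.8 ± 0.752 CPM (-0.96 ± 0.08, edgeR adjusted p = 5.35e-05). Ptprn, a membrane protein of the granule, changed by -0.79 ± 0.07 and Scg5, the chaperone of Pcsk2, by -1.07 ± 0.27. Scg3 rose by 1.09 ± 0.28, Ptprn2 by 1.08 ± 0.20 and Stx1a by 0.49 ± 0.12. The calls of Scg5, Scg3 and Stx1a were lost under 1, 3 and 2 of the 12 alternatives.

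Of 5 tested precursors that are cleaved to active peptides, 4 were lower, and the median of the list was -1.32. Gal, the precursor of the neuropeptide galanin, fell from 5.85 ± 0.831 to 0.392 ± 0.0672 CPM (-3.89 ± 0.20, edgeR adjusted p = 4.5e-06), nearly the change of Slc39a12. Its hMeDIP sum was also lower, by -1.05 ± 0.09 (adjusted p = 8.11e-12), in a series where 38.3% of all gene sums were called lower. Calca, Adm and Nppc changed by -1.35 ± 0.26, -1.32 ± 0.14 and -1.26 ± 0.35 in RNA. The call of Nppc was lost without control replicate 1 or VitC replicate 2 or 3. In hMeDIP sums Adm was lower (-0.35 ± 0.11, edgeR adjusted p = 0.00448), and Calca and Nppc were not called.

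No tested calpain gene was called lower, against 21% of all tested genes, and with 8 tested genes this count says little about calpains. Capns1 was not found by symbol. Of 8 tested calpain genes 1 was called, Capn2, the catalytic subunit of m-calpain, which rose from 491 ± 19.3 to 605 ± 39.7 CPM (0.30 ± 0.06, edgeR adjusted p = 0.00631) and was not called when scaled by all counted reads. Capn1, the catalytic subunit of μ-calpain, stood at 116 ± 1.6 and 121 ± 6.1 CPM (0.06 ± 0.06, adjusted p = 0.397). The list median was -0.16. Among 17 tested cytoskeletal and adhesion proteins known as calpain substrates, 6 rose and 2 fell, with a median of 0.14. The 6 were Map2 (0.87 ± 0.12) and Mapt (0.81 ± 0.09), which bind microtubules, the talin Tln2 (0.41 ± 0.07), the filamin Flna (0.38 ± 0.06), vinculin Vcl (0.34 ± 0.05) and the spectrin Sptbn1 (0.28 ± 0.08). The neurofilament gene Nefl fell from 40.4 ± 6.99 to 17.8 ± 1.67 CPM (-1.18 ± 0.13). The calls of Flna, Vcl and Sptbn1 were lost when scaled by all counted reads.

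Among 11 other tested ZIP zinc importers 4 were lower and 2 higher, around a median of 0.01. Slc39a4, the intestinal zinc importer ZIP4, had the largest change, from 5.95 ± 0.512 to 1.2 ± 0.116 CPM (-2.30 ± 0.14, edgeR adjusted p = 8.71e-06), and its hMeDIP sum was lower by -0.96 ± 0.07 (adjusted p = 1.04e-14). Slc39a8, a zinc and manganese importer, changed by -0.67 ± 0.16. Slc39a14 and Slc39a10 changed by -0.25 and -0.21, and Slc39a7 and Slc39a13 by 0.28 each, calls that were lost when scaled by all counted reads. Of 5 tested ZnT exporters, which carry zinc out of the cytosol, Slc30a5 was higher (0.27 ± 0.07) and Slc30a1 lower (-0.23 ± 0.08). Both calls were lost under that scaling. Of the other ZIP genes called lower in RNA, Slc39a10 had a higher hMeDIP sum (0.18 ± 0.06, edgeR adjusted p = 0.00423). Slc39a8 and Slc39a14 were not called in hMeDIP. Of the 7 genes of the metallothionein list only Mt3 was found by symbol, and with at most 3 reads in a library it was not tested.

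**Figure D5:**
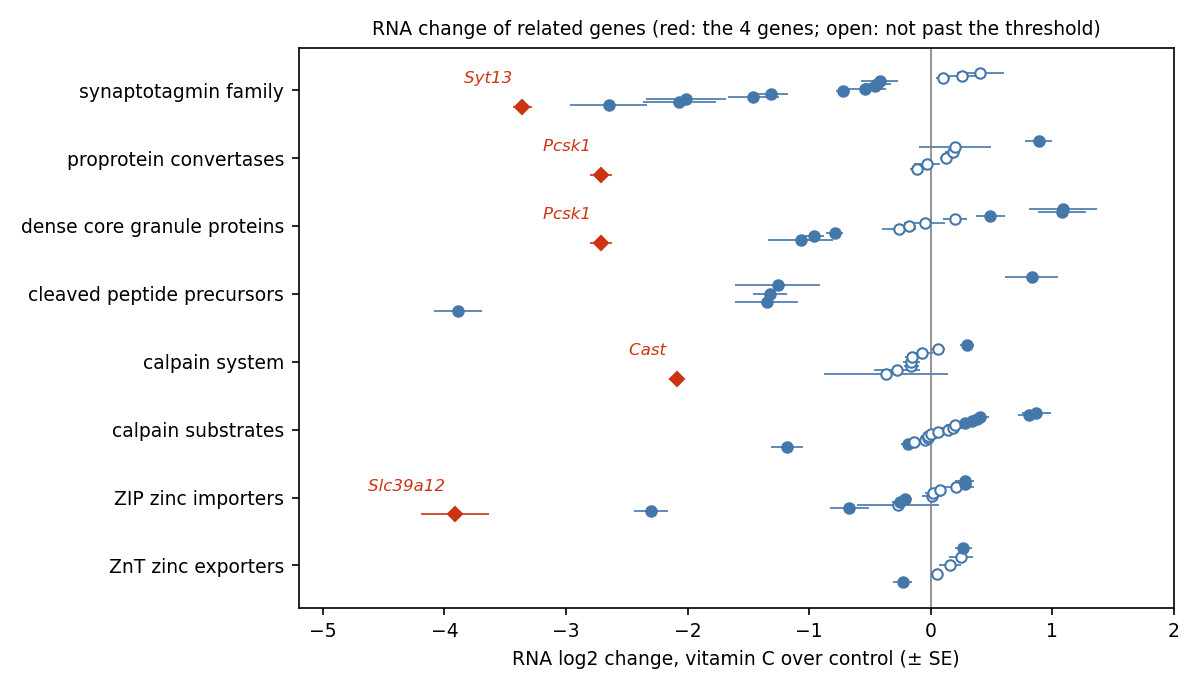
RNA log2 change (VitC over control, ± SE) of every tested gene in 8 lists of relatives, filled symbols past the edgeR threshold and open symbols not, with the 4 chosen genes as red diamonds. Syt13, Pcsk1, Cast and Slc39a12 each lie to the left of every relative in their own family list, and the dots of the calpain system lie near 0.

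Markers of other cell types were read in the same libraries. Some listed markers, such as Pecam1 and Itgam, had no symbol in the peak list and are not in the sums below. Of the neuroendocrine markers, which could accompany Syt13 and Pcsk1, Chga had at most 1 read in any library, Dbh 4, Scg2 5 and Th 8. Neuron markers summed to 905 to 972 CPM in control and 781 to 879 CPM in VitC libraries, mostly Gap43, which Schwann cells also express. Of the 3 tested, Gap43 (-0.18 ± 0.06) and Nefl (-1.18 ± 0.13) were lower and Tubb3 was higher (0.93 ± 0.12), while Rbfox3, Stmn2, Snap25 and Elavl4 had at most 3 reads. Macrophage markers summed to 1.46 to 1.83 and 1.46 to 1.73 CPM, with Csf1r at 5 reads or fewer.

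Summed markers of connective tissue cells were higher in VitC libraries, through a few genes, while others on the same lists were lower. Fibroblast markers summed to 4510 to 4710 CPM in control and 9270 to 10800 CPM in VitC libraries, almost all from Col1a1, while Pdgfra, Pi16 and Gsn were lower and Dcn was at 0. Pericyte and smooth muscle markers went from 78.2 to 81.3 CPM to 194 to 221 CPM, with Tagln, Des and Pdgfrb higher and Rgs5, Cnn1 and Acta2 at 10 reads or fewer. Perineurial markers went from 208 to 235 CPM to 438 to 451 CPM, with Itgb4 (1.98 ± 0.05) and Ntn4 (1.17 ± 0.13) called higher and Sfrp4 (-3.10 ± 0.14) and Slc2a1 (-0.54 ± 0.08) called lower. Endothelial markers went from 1.46 to 1.94 CPM to 3.09 to 4.33 CPM, mostly Tek, with Cdh5 at 0. Their part in the RNA differences of the 4 genes was not tested, and in these bulk libraries fewer cells of a type and less RNA per cell cannot be told apart.

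For each of the 4 genes the 3 genes with the most similar RNA pattern were found among tested genes with a symbol in the peak list. Names that are only identifiers or clone labels were left out. Similarity was the root mean square difference of centred log2 CPM over the 6 RNA libraries. For Syt13 they were the chemokine Ccl2 (0.164), the secreted Wnt modulator Sfrp4 (0.238), which is also on the perineurial list, and the matrix protein Spon1 (0.252). For Pcsk1 they were the adaptor Sla (0.0939), Spon1 (0.155) and the ETS factor Etv4 (0.165). For Cast they were the microsomal enzyme Mgst2 (0.127), the transporter Slc46a3 (0.147) and the kinase Dyrk3 (0.149). For Slc39a12 the closest of the genes compared was Nlrp10 (0.423), followed by Pik3ap1 (0.456) and Pkd2l1 (0.476). Mean VitC levels were low for Nlrp10 (0.0617 CPM), Pkd2l1 (0.062), Slc46a3 (0.147), Pik3ap1 (0.246) and Etv4 (0.269), so their distances rest on few reads. Among themselves the 4 genes were 0.33 (Pcsk1 and Cast) to 1.07 (Cast and Slc39a12) apart.

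The closest of these, Sla, had an RNA level of 388 ± 12.8 CPM in control and 65.7 ± 3.7 CPM in VitC libraries, with an hMeDIP sum lower by -0.51 (edgeR adjusted p = 7.57e-13). The hMeDIP sums of the other listed genes ranged from -1.07 for Nlrp10 to 0.38 for Sfrp4. Spon1, near to both Syt13 and Pcsk1 in RNA, had an hMeDIP change of 0 (adjusted p = 0.994).

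Most of the tested genes that the peak list places within 500 kb of the 4 genes were not called lower in RNA. Over all 12925 tested genes 21% were called lower and 19.1% higher, so the same holds for most genes of the series. Around Syt13, 6 of 9 neighbours were tested in RNA and 1 was called, Cry2, with a change of 0.17 ± 0.06 (edgeR adjusted p = 0.0409) that was lost under 8 of 12 alternatives. The next genes, Prdm11 and Slc35c1, changed by -0.19 (adjusted p = 0.0717) and -0.13 (adjusted p = 0.261). Next to Cast, Erap1, an aminopeptidase of the endoplasmic reticulum, stood at 72.1 ± 3.02 CPM in control and 85.5 ± 0.771 CPM in VitC libraries (0.24 ± 0.06, adjusted p = 0.00852), a call lost when scaled by all counted reads. Around Slc39a12, 4 of 7 neighbours were tested. Nsun6 was higher (0.42 ± 0.10, adjusted p = 0.0129), and Cacnb2 was lower (-0.86 ± 0.28, adjusted p = 0.0406), a call lost under 6 of 12 alternatives.

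The peak list places no other gene within 500 kb of Pcsk1. It puts Pcsk1 and Cast at distant positions of chromosome 2, whereas in RefSeq's GRCr8 annotation Pcsk1, Cast and Erap1 are neighbours within 500 kb. By that order, Erap1 has a change of 0.24 in RNA beside neighbours with -2.71 and -2.09.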

How the data were processed

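Per the labels, RNA, hMeDIP and input libraries came from primary rat Schwann cells at passage 3, 3 control and 3 VitC each. No label ties replicates to separate cultures or rats, and p-values therefore reflect only sample-to-sample spread, possibly technical. Values are raw read counts that the authors deposited, per gene for RNA and per peak for hMeDIP and input, beside a list of peak positions and genes. STAR, BWA, HTSeq, Trim Galore and CASAVA 1.4 are named, without roles, in the submitters' processing notes. No source used here gives the genome build, annotation release, strand setting, peak caller or merging rule, so reads of overlapping or antisense genes cannot be told apart. Reads in no gene or peak (42.3% to 53.9% of RNA, 56.1% to 69.2% of hMeDIP and 91.3% to 91.6% of input counts) were left out.

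Counts were tested with edgeR 4.0.16 (R 4.3.3, data.table package 1.17.8) by the quasi-likelihood test with TMM factors, its default filter on low counts and Benjamini-Hochberg adjustment over all features, called under 0.05, with treatment as the only term. RNA, hMeDIP and input were fitted apart, and 1 further fit of hMeDIP and input counts tested the change over input. hMeDIP replicates 1 and 3 were summed. Counts per peak were summed per gene for the gene sums. The fits were tested on simulated data. Alternatives, 12 of them for RNA, were RLE and library size factors, scaling by all counted reads, DESeq2 1.42.0, no filter, the replicate number as a block, promoter or gene body peaks alone, and leaving out each replicate. Sums over the parts of the peak list were added after the data were seen.

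The 4 genes, the lists of related genes and the tests were chosen with earlier results of these data known. Text names, per gene, the 2 peaks of smallest p, the peak of most signal and every promoter peak, up to 6 called genes per list, the 3 nearest RNA patterns and neighbours within 500 kb. Other genes, such as uncalled relatives, marker genes and the farthest Syt13 peak, were named after their values were seen. Some listed genes are not reported here.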

Additional observations from a re-analysis of the deposited data

How the results depend on the processing

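Across the alternatives listed under the processing, apart from the parts of the peak list, 260 values kept their direction and side of the threshold, or a similar count. Of the rest, 10 reversed direction, 8 no longer passed the threshold, 4 newly passed it and 9 were counts that moved. Scaled by all counted reads, 2759 RNA genes passed (5188 by TMM), 1117 of them lower (2715), with 7 related genes higher (15). hMeDIP peaks then numbered 129858 higher (79598) and 51017 lower (78467), 13 of the former in the 4 genes (8), and DESeq2 called 43730 and 4 higher. Under that scaling the hMeDIP sums were 0.0332 for Syt13, 0.5704 for Pcsk1, 0.2907 for Cast and 0.3337 for Slc39a12. Cast gave -0.1005 by library size scaling and -0.1462 by DESeq2. Over input, library size scaling gave -0.173 for Cast. Promoter peaks alone gave -0.2648 for Pcsk1 and 0.5734 for Cast, and gene body peaks alone 1.2138 for Pcsk1 and -0.2062 for Slc39a12. In the second part of the list Syt13 was at -0.0313 and Cast at 0.1546, and in the first Slc39a12 at -1.0401. The cause of these shifts was not tested.

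Leaving out replicates gave 1784 (without control replicate 2) to 2916 lower RNA genes and hMeDIP sums of -0.1624 to -0.1282 for Cast and -0.1246 to -0.0806 for Slc39a12. Input sums then ran from -0.0981 to 0.1353 for Pcsk1, -0.0012 to 0.1475 for Cast and -0.0397 to 0.0807 for Slc39a12, and Cast over input from -0.3039 to -0.1518. Cast was not called in hMeDIP without VitC replicates 1 and 3 (-0.136), and not over input without control replicate 1 or 2 or VitC replicate 1 or 3.

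Replicate numbers shared by the groups are not said to pair samples. Deviations from group means correlated in RNA at 0.268, 0.156 and 0.041 between equal numbers and at -0.258 to 0.239 between unequal numbers. In hMeDIP they correlated below 0 between equal numbers. The RNA values do not decide whether the numbers pair samples, and the numbers were not taken as pairs. The replicate block gave RNA changes of -3.36, -2.71, -2.09 and -3.93 for Syt13, Pcsk1, Cast and Slc39a12 and 5550 RNA genes, and hMeDIP sums of -0.42, 0.16, -0.15 and -0.10. Depth limits the narrow peaks, some with 15 to 28 reads in a library, and the treated RNA level of Slc39a12.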

Other observations

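Apart from the 4 genes, 90 genes were lower in RNA by more than 2 log2 units, and 73 of them had a tested hMeDIP sum. Of these, 41 (56.2%) were called lower and 13 (17.8%) higher in hMeDIP under TMM scaling by edgeR, with a median change of -0.15, against 38.3%, 35.9% and 0 over all 16140 genes with a tested sum. Among the 4 genes, Syt13 and Cast were called lower and Pcsk1 and Slc39a12 were not called.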
